A study of Homo sapiens with 3 samples.

Results

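The MCM family is described here across 3 arrays of U2OS cells, a human osteosarcoma line. Its 10 members (MCM2, MCM3, MCM4, MCM5, MCM6, MCM7, MCM8, MCM9, MCM10 and MCMBP) were taken by name. Every probe set that the platform annotation gives to exactly 1 of these symbols was used, 24 of 41091 probe sets with 1 gene symbol. The cells were harvested 5 days after transduction with a pMSCV retrovirus, and each construct has 1 array. The first carried wild-type Set8b (labelled Wt-Set8b), the enzyme that monomethylates histone H4 at lysine 20. The second carried a stable form (labelled Set8_deltaPIP2) that the CRL4-Cdt2 ubiquitin ligase cannot send for degradation. The third carried the empty vector, the control for both. With 1 array per construct no difference has a replicate check, no p-value is given, and whether the arrays differ through the construct or through the culture cannot be told apart. The labels do not say whether transduced cells were selected.

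MCM2 to MCM7 form the ring-shaped motor of the replicative DNA helicase. In G1 phase the origin recognition complex, with CDC6 and CDT1, loads the ring onto DNA as an inactive double ring, which is called licensing. In S phase CDC45 and the GINS complex join it to make the active helicase, named CMG after its parts. Many of these genes are transcribed under E2F factors as cells pass from G1 into S phase. Set8 and CDT1 are both destroyed through CRL4-Cdt2 when DNA is replicated, which limits methylation of histone H4 and licensing to their own part of the cycle.

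By the brightest probe set of each gene, every member read lowest with stable Set8b. MCM2 to MCM7 had a median log2 difference of -1.28 from vector and -1.17 from wild-type Set8b. The spread of these 6 genes was an SD of 0.27 for the first comparison and 0.18 for the second. For wild-type Set8b over vector the same 6 genes had a median of -0.07, with 3 above 0 and 3 below. Over all 11783 genes past the filter described next, the medians were -0.01, -0.02 and 0.01 in the same order. Fewer cells in the phase that makes these transcripts and less RNA per cell cannot be told apart on these arrays.

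Signals are given after quantile normalisation, which gives the 3 arrays the same distribution, and differences are on the log2 scale. A probe set counted as measured if its mean log2 signal lay at or above the median of all named probe sets, a signal of 51.4. Of the 24 probe sets, 19 passed, covering all 10 members, and these 19 were above that signal on all 3 arrays. Names ending in _s_at or _x_at, 9 of the 19, mark probe sets that can also read other transcripts. Of the 19, 12 were at least 2-fold lower with stable Set8b than with vector, against 4.92% of all 20546 probe sets past the filter. For stable over wild-type Set8b the count was 13 of 19, against 4.69%. For wild-type Set8b over vector it was 0 of 19, against 1.12%. The stable Set8b array was the lowest of the 3 for 19 of 19 probe sets, and for 40.8% of all probe sets past the filter. By gene, 7 of 10 members were at least 2-fold lower with stable Set8b than with vector (4.81% of all genes) and 7 of 10 than with wild-type Set8b (4.80%). For wild-type Set8b over vector 0 of 10 were (0.653%). At least 2-fold higher were 0 of 10 members in each comparison, where all genes had a share of 5.23% (stable Set8b against vector), 4.45% (stable against wild-type) and 1.02% (wild-type against vector).

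**Figure D1:**
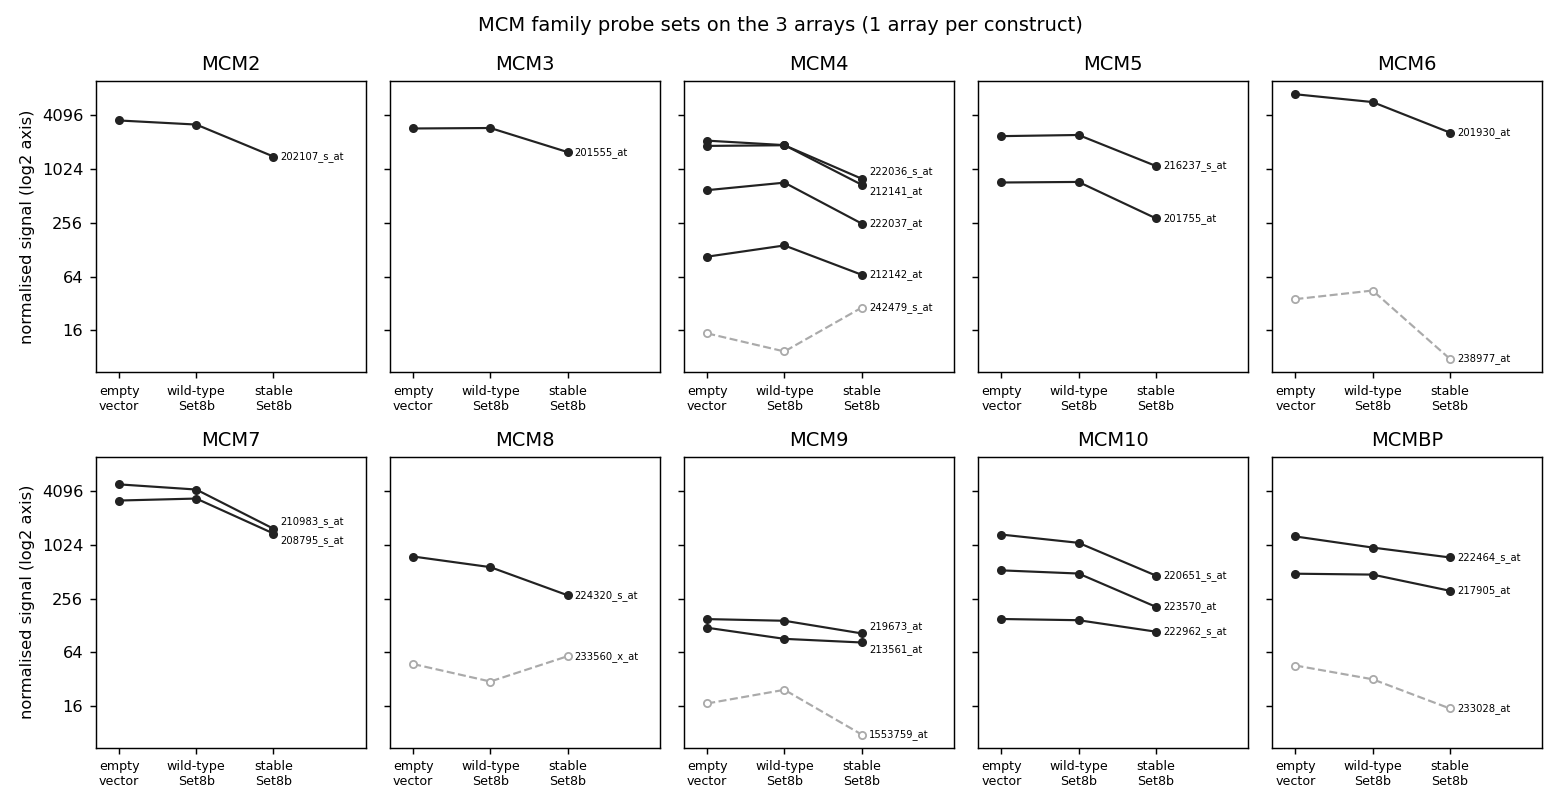
Normalised signal (log2 axis) of each of the 24 MCM family probe sets on the vector, wild-type Set8b and stable Set8b arrays, 1 panel per gene and 1 line per probe set, with 1 array per construct and so no error bars. Solid lines passed the filter at a signal of 51.4, and all 19 have their lowest point on the stable Set8b array; the 5 dashed lines lie below the filter.

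Several facts of the arrays bear on these values. The arrays had been scaled to a common trimmed mean, and their deposited medians were 41.7 with stable Set8b, 42.8 with wild-type Set8b and 38.6 with vector. Hybridisation spike-ins (18 probe sets) read lower on the stable Set8b array, with a median ratio of 0.796 to vector, and poly-A spike-ins (27 probe sets) read higher on the vector array, with a ratio of 0.463 for stable and 0.453 for wild-type Set8b over vector. The 3′ to 5′ ratio of the control probe sets, a sign of RNA integrity, was 1.02 with stable Set8b, 1.12 with wild-type Set8b and 1.03 with vector for GAPDH, and 7.33, 7.56 and 7.995 in that order for ACTB. For ACTB the 3′ end thus read far above the 5′ end on all 3 arrays. Whether any of this has a part in the MCM values was not tested. Of 8 mesenchymal and bone markers 7 read above 50 on all arrays, with COL1A2 the exception. By the same rule 3 of 6 epithelial markers (CLDN4, EPCAM and KRT14) and 2 of 3 endothelial markers (PECAM1 and VWF) passed. So did 2 of 5 leukocyte markers (CD3D and CD79A). The summed signal of 6 epithelial markers was 497, 718 and 616 with stable Set8b, wild-type Set8b and vector, that of 5 leukocyte markers 369, 350 and 267, and that of 3 endothelial markers 238, 199 and 160. The mesenchymal sum was 46603, 32709 and 35384. KMT5A, the gene of Set8, had 4 probe sets that differed from -0.76 to 0.90 for stable Set8b over vector and from 0.18 to 1.23 for wild-type Set8b over vector. All 4 were lower with stable than with wild-type Set8b, from -1.08 to -0.06, and the brightest is the one at -0.76 from vector. Which of them read the transduced construct is not known here.

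The promoters of members with sequence in the RefSeq table (GRCh38.p14) were searched for the E2F words. The table holds 250 bases before and 50 after each start site. It gave 11 promoters for 8 members, all but MCM4 and MCM5. The words searched, on both strands, were TTTCCCGC, TTTGGCGC, TTTCGCGC and TTTGCCGC. A match was found for 6 of the 8 genes (MCM2, MCM3, MCM6, MCM7, MCM8 and MCMBP), against 3.99% of 27305 genes with a promoter in the table. The shares given here cover all genes of that table, measured on the arrays or not, and are not matched for base content. By promoter the count was 6 of 11, against 3.31% of 35116. In the bases before the start alone it was 4 of 8 genes (MCM3, MCM6, MCM7 and MCMBP), against 3.40%. The NF-Y box CCAAT was present for 6 of 8 genes (39.7% of all genes), with 1 of its matches in MCM7 sharing a base with an E2F word, and the cell cycle word TTTGAA, known as CHR, for 0 of 8 (18.2%). A match is a run of letters and not a measured binding site, and its part in the MCM differences was not tested. The stretches before the start site that hold an E2F word are printed 5′ to 3′ on the strand of the gene, all on the minus strand of GRCh38.p14, with the matched letters in capitals. They show how the word repeats in MCM6 and how close it lies to the start in MCM7 and MCMBP. They lie, in the order printed, at chr6:52284893-52284932, chr2:135876568-135876611, chr2:135876506-135876549, chr7:100101561-100101600, chr7:100101398-100101422 and chr10:119872844-119872868.
MCM3, -190 to -151 from the start: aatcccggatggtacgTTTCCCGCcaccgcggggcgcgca
MCM6, -168 to -125 from the start: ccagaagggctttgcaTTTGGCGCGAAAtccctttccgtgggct
MCM6, -106 to -63 from the start: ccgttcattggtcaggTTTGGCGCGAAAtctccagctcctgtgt
MCM7, -203 to -164 from its first start: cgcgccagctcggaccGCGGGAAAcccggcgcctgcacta
MCM7, the last 25 bases before its first start: cacgtggggggcgacgTTTCGCGCc
MCMBP, the last 25 bases before its second start: cggtcggcggcggctaTTTCCCGCc

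Each of the stretches of MCM6 holds a pair of overlapping words, 1 on each strand, which share their middle letters. In MCM3 a further word spans the start site itself. In MCM2 a pair of overlapping words begins 2 bases after the start, and in MCM8 a word begins 26 bases after it. The windows of MCM9 and MCM10 held none of the E2F words.

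**Figure D2:**
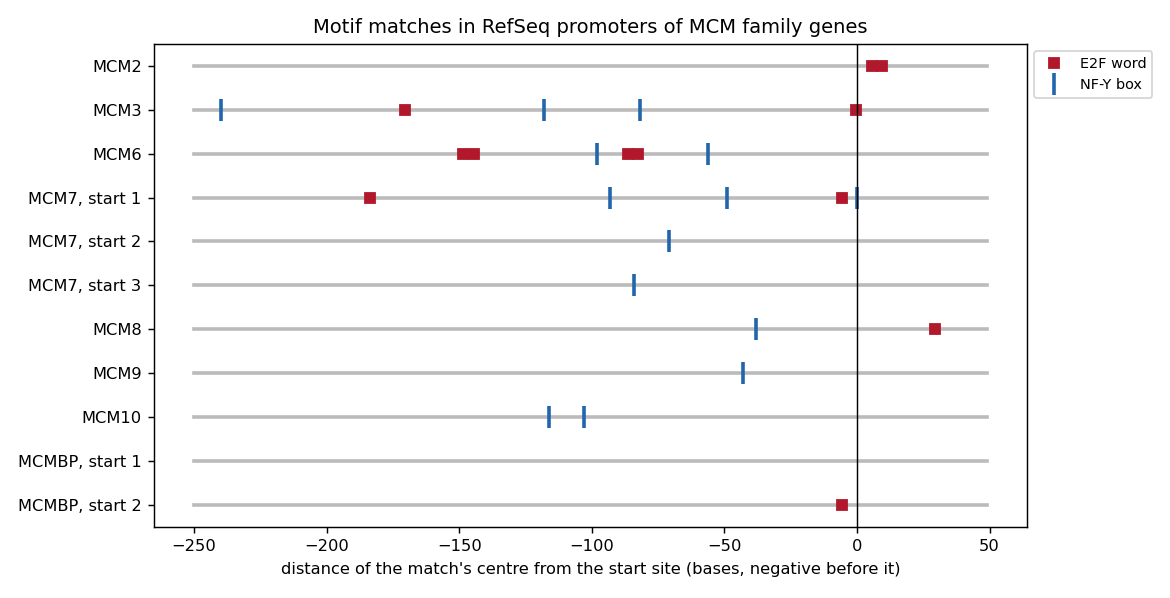
Positions of E2F words (squares) and NF-Y boxes (bars) in the 11 RefSeq promoters of 8 MCM family genes, as the distance in bases of the centre of the match from the start site (0), over the window drawn in grey. E2F words appear in 6 of the 11 windows, and those of MCM2, MCM3, MCM7 start 1 and MCMBP start 2 include a match within 10 bases of the start site.

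MCM2, whose tail also binds histones H3 and H4, was read by 1 probe set, 202107_s_at. Its signal was 3578 for vector, 3221 for wild-type Set8b and 1412 for stable Set8b. The stable Set8b array stood apart from both others, at 39.5% of the vector signal. The log2 differences of stable Set8b were -1.34 from vector and -1.19 from wild-type Set8b, and that of wild-type Set8b from vector was -0.15.

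MCM5 borders MCM2 at the gate through which DNA enters the ring. Its brighter probe set, 216237_s_at, read 2389.7 for vector, 2462 for wild-type Set8b and 1110.1 for stable Set8b. The other, 201755_at, read 724, 734 and 288 in the same order. On both, vector and wild-type Set8b lay close together (0.04 and 0.02) and stable Set8b was lower, by -1.11 and -1.33 log2 from vector and by -1.15 and -1.35 from wild-type Set8b.

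MCM3, the subunit that first meets the origin recognition complex and CDC6, was read by 201555_at alone. The signal was 2911 for vector, 2947 for wild-type Set8b and 1585 for stable Set8b. By the brightest probe set of each gene this was the smallest difference among MCM2 to MCM7, at -0.88 from vector and -0.89 from wild-type Set8b. It fell short of 2-fold in both, and wild-type Set8b differed from vector by 0.02.

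MCM4, MCM6 and MCM7 form a stable core of the ring with helicase activity of its own. MCM4 had 5 probe sets, of which 4 passed the filter. On the brightest, 222036_s_at, the signal was 1858 for vector, 1889.7 for wild-type Set8b and 798 for stable Set8b (-1.22 from vector). Almost as bright was 212141_at, at 2128, 1896 and 684 in that order (-1.64). The dimmer 222037_at read 594, 721 and 251 (-1.24). All 3 put stable Set8b below the other arrays by more than 2-fold, and the differences from wild-type Set8b were -1.24, -1.47 and -1.52.

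The faintest MCM4 probe set past the filter, 212142_at, read 107 for vector, 143 for wild-type Set8b and 67.2 for stable Set8b. It was at -0.67 from vector and -1.09 from wild-type Set8b, and its 0.42 for wild-type Set8b over vector was the highest value of that comparison among the 19. The last, 242479_s_at, read 14.8, 9.3 and 28.8. It ran the other way, at 0.96 for stable Set8b over vector and 1.63 for stable over wild-type Set8b, but below the filter. With signals under 50 set to 50, both differences are 0.

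MCM6, which also contacts CDT1 during loading, was measured by 201930_at. It read 7032 for vector, 5751 for wild-type Set8b and 2621 for stable Set8b. The step from vector to wild-type Set8b, -0.29, was the largest among MCM2 to MCM7 by the brightest probe set of each, and the differences of stable Set8b were -1.42 from vector and -1.13 from wild-type. Its second probe set, 238977_at, was dim on all arrays, at 35.8, 44.7 and the floor of 7.7. The differences of -2.22 and -2.54 for stable Set8b become 0 with signals under 50 set to 50.

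MCM7 was the lowest of the 10 members in stable Set8b over vector, where 0.942% of all genes lay lower. On 210983_s_at it read 4849 for vector, 4246 for wild-type Set8b and 1547 for stable Set8b, and on 208795_s_at 3198, 3366 and 1367. Both probe sets put stable Set8b clearly below the other arrays, at -1.65 and -1.23 from vector and -1.46 and -1.30 from wild-type Set8b. For wild-type Set8b over vector they differed in sign, at -0.19 and 0.07.

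**Figure D3:**
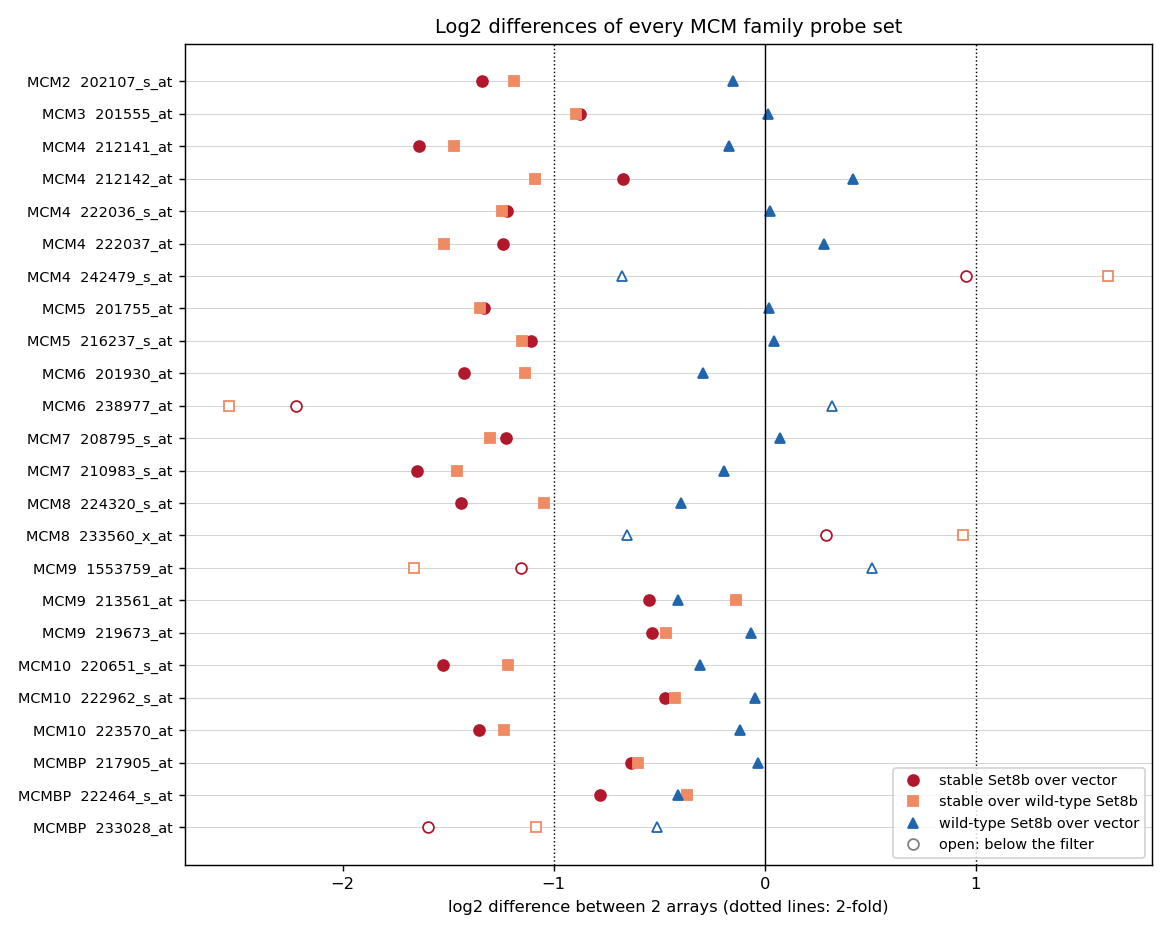
Log2 difference (horizontal axis) of each of the 24 MCM family probe sets for stable Set8b over vector (circles), stable over wild-type Set8b (squares) and wild-type Set8b over vector (triangles), each from 2 arrays without replicates; open symbols lie below the filter and dotted lines mark 2-fold. Filled circles lie between -1.65 and -0.47, filled squares between -1.52 and -0.14 and filled triangles between -0.41 and 0.42.

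MCM8 and MCM9 form a separate complex that works in homologous recombination rather than in licensing. MCM8 read 756 for vector, 575 for wild-type Set8b and 279 for stable Set8b on 224320_s_at. These 3 signals are stepped, at -0.39 from vector to wild-type Set8b and a further -1.04 to stable Set8b, -1.44 in all. Its other probe set, 233560_x_at, stayed below the filter at 47.3, 30.2 and 57.9, with stable Set8b the highest. With signals under 50 set to 50 it was at 0.21 from both other arrays.

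MCM9 differed less. On 219673_at it read 151 for vector, 144 for wild-type Set8b and 104 for stable Set8b, and on 213561_at 121, 90.6 and 82.5. The differences of stable Set8b from vector were -0.53 and -0.55, set against an SD of 0.39 between probe sets of 1 gene in that comparison, and 15.9% of all genes lay lower than the first. On 213561_at stable Set8b differed from wild-type Set8b by -0.14, the smallest such difference among the 19 probe sets. The third probe set, 1553759_at, read 17.1, 24.4 and the floor of 7.7, below the filter.

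MCM10 is not a ring subunit, but a scaffold protein that helps to switch on the loaded helicase. On its brightest probe set, 220651_s_at, it read 1331 for vector, 1075 for wild-type Set8b and 463 for stable Set8b, and 223570_at read 529, 487 and 207. Stable Set8b was lower by more than 2-fold on both, at -1.52 and -1.35 from vector and -1.21 and -1.23 from wild-type Set8b. The third, 222962_s_at, read 151, 146 and 109, a difference of -0.47 from vector and -0.43 from wild-type Set8b. So the size of the MCM10 difference depends on the probe set, from 1.39-fold to 2.87-fold lower than vector.

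MCMBP binds MCM subunits away from DNA and helps new MCM complexes to form. On 222464_s_at it read 1267 for vector, 952 for wild-type Set8b and 738 for stable Set8b. On 217905_at the signals were 485, 474 and 313. Neither reached 2-fold, with -0.78 and -0.63 from vector and -0.37 and -0.60 from wild-type Set8b. The last, 233028_at, was below the filter at 45.6, 32.0 and 15.1.

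In stable Set8b over vector the 4 members outside the ring ranged from -1.52 (MCM10) to -0.53 (MCM9), an SD of 0.49, and MCM2 to MCM7 from -1.65 to -0.88, an SD of 0.27. Whether the sets differ in spread was not tested. For wild-type Set8b over vector MCM8, MCM9, MCM10 and MCMBP were all below 0 (-0.39, -0.06, -0.31 and -0.41), under each scaling tried. Of the ring subunits MCM3, MCM4 and MCM5 were just above 0 in that comparison (0.02, 0.02 and 0.04) and MCM2, MCM6 and MCM7 below. MCM3 was on the other side of 0 with values as deposited, and all 3 did with arrays centred on their medians. The SD between probe sets of 1 gene was 0.36 for that comparison, and by the brightest probe set MCM8 and MCMBP of the 10 members lay beyond it. The other MCMBP probe set past the filter was at -0.03. That SD comes from probe sets on the same arrays and does not measure variation between arrays or cultures.

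**Figure D4:**
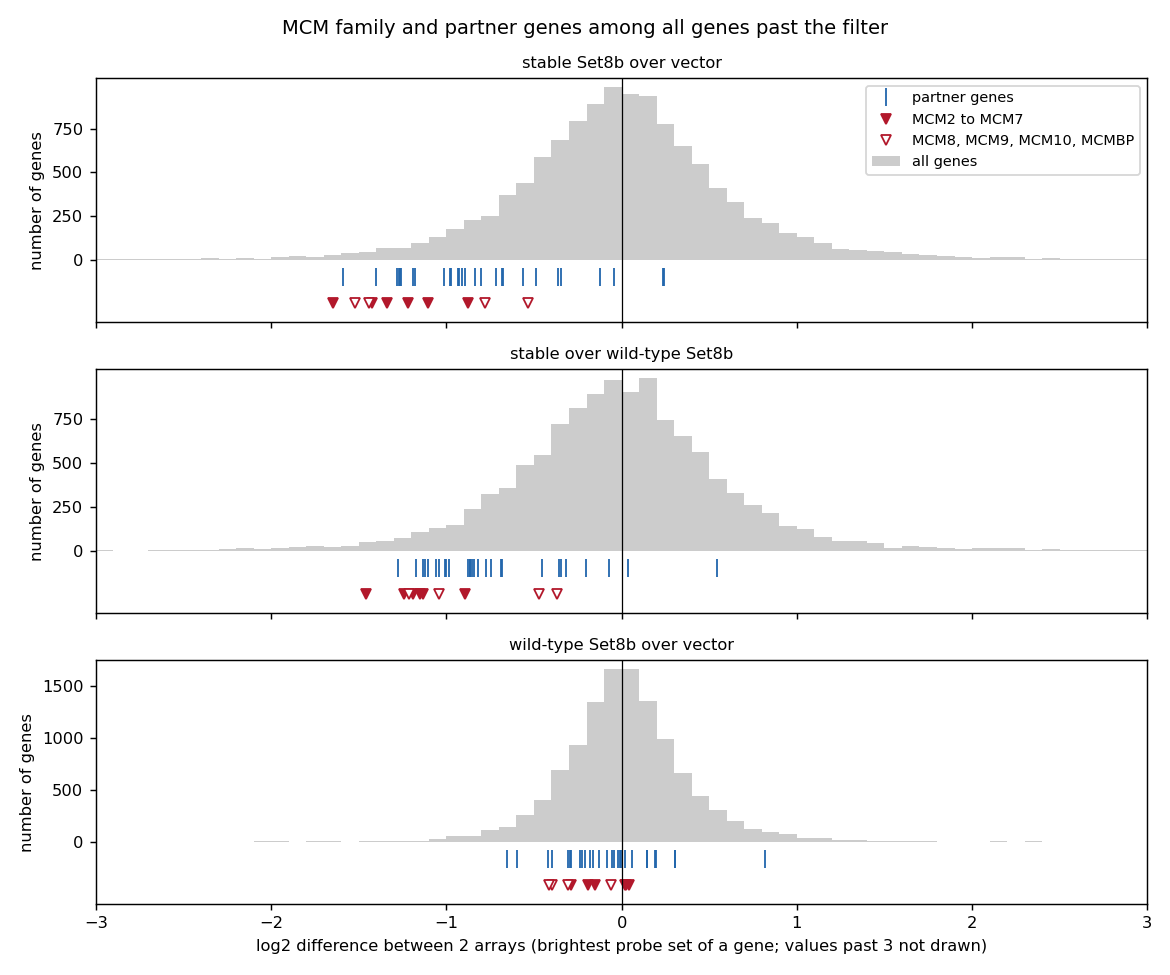
Histograms of the log2 difference of 11783 genes past the filter (brightest probe set of each, 1 array per construct) for the 3 comparisons, with MCM2 to MCM7 (filled triangles), the other 4 members (open triangles) and 28 partner genes (bars) marked below the axis. The members lie in the lower part of the upper and middle histograms. In the bottom histogram they lie between -0.41 and 0.04, and 8.92% of all genes lie below MCMBP, the lowest of them.

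The partners of the helicase were set beside the family as a list, of which 28 genes passed the filter and MTBP and MCMDC2 fell below it. Of the 28, 26 lay below 0 in stable Set8b over vector, and 9 (32.1%) passed 2-fold, while of all 11783 genes 5966 lay below 0 and 4.81% passed 2-fold. The median was -0.90. Against wild-type Set8b 8 of the 28 passed 2-fold (4.80% of all genes), with -0.85 as the median. In wild-type Set8b over vector 0 did (0.653% of all genes), and the median was -0.07. In each comparison 0 of 28 were at least 2-fold higher, where all genes had shares of 5.23%, 4.45% and 1.02% in the same order. With shares this low, a count of 0 among 28 does not set the partners apart from other genes.

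Of the subunits that complete the CMG helicase, GINS2 differed most by the brightest probe set. It read 1677 for vector, 1697 for wild-type Set8b and 702 for stable Set8b, -1.26 from vector. CDC45 read 1264, 1399 and 792 (-0.67), and GINS1 4234, 4409 and 2577 (-0.72). GINS3 was at -0.98 and GINS4 at -0.35. The order depends on the probe set, since GINS2 had another at -0.75 and GINS3 another at -1.42. By the brightest probe set all 5 were lowest with stable Set8b, and 1 of the 5 passed 2-fold.

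Among the 9 genes of origin recognition and loading, CDT1 was at -1.40, CDC6 at -1.28, GMNN (geminin, the inhibitor of CDT1) at -1.19 and ORC1 at -1.18 in stable Set8b over vector. CDC6 had another probe set at -0.54 and CDT1 another at -0.98. For wild-type Set8b over vector CDT1 was at -0.65 on its brightest probe set and at 0.41 on the other. The other origin recognition subunits differed less, from -0.56 for ORC2 to 0.24 for ORC4, and ORC2, ORC4 and ORC5 had probe sets on both sides of 0. ORC1, the subunit that recognises methylated lysine 20 of histone H4, read 291 for vector, 282 for wild-type Set8b and 128 for stable Set8b.

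In the group of origin firing and fork genes, CLSPN (claspin, which links the fork to the checkpoint kinase) was at -1.59, with other probe sets up to -0.43. TIMELESS and TIPIN, which travel as a pair with the helicase, were at -1.27 and -1.26. CDC7, the kinase that phosphorylates MCM subunits to fire origins, read 622 for vector, 617 for wild-type Set8b and 308 for stable Set8b (-1.01). Its activator DBF4 was at -0.68 and DBF4B at -0.80. RECQL4 was at -0.93 from vector and -1.12 from wild-type Set8b, and TOPBP1, TICRR, DONSON and WDHD1 lay between -0.97 and -0.84. These are values of the brightest probe sets. From vector, WDHD1 had other probe sets at -1.38 and -0.46, and DBF4B at -1.13 and -0.64. TICRR had another at -1.14 and RECQL4 another at -0.56. RECQL, a helicase outside the MCM family, was at 0.24, the highest of the group, with other probe sets down to -0.65. TONSL, which binds MCM and new histones, was at -0.91. HROB, which recruits MCM8 and MCM9, read 94.4, 167 and 91.5 with vector, wild-type and stable Set8b, so wild-type Set8b was the array that stood apart (0.82 over vector).

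**Figure D5:**
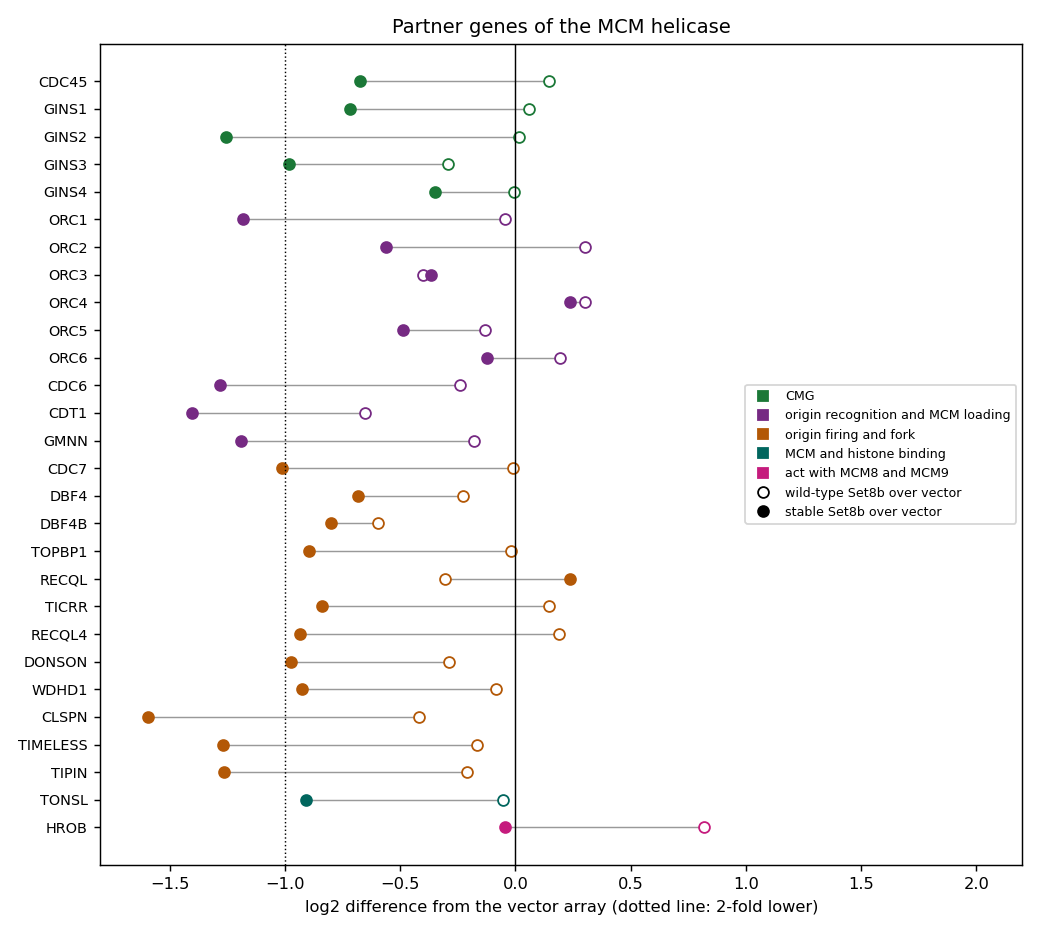
Log2 difference from the vector array (horizontal axis) of 28 partner genes of the MCM helicase, by the brightest probe set, for wild-type Set8b (open circles) and stable Set8b (filled circles), 1 array each, coloured by group. Filled circles reach from -1.59 (CLSPN) to 0.24 (RECQL), and 9 lie beyond the dotted line at 2-fold lower.

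Markers of dividing cells were also lower. By the brightest probe set all 10 of the list lay below 0 in stable Set8b over vector, 3 of them beyond 2-fold, and the median was -0.75. Of all 11783 genes 5966 lay below 0 in that comparison and 4.81% were at least 2-fold lower. MKI67 was at -1.68, CCNA2 at -1.32 and RRM2 at -1.24. PCNA, the sliding clamp of the fork, was at -0.56 and CDK1 at -0.46. For stable over wild-type Set8b the median of the markers was -0.49. For wild-type Set8b over vector it was -0.34, with 10 of 10 below 0, where 5732 of all 11783 genes lay below 0. Other probe sets differed in sign: CCNB1 had one at 0.10 from vector and 0.51 from wild-type Set8b with stable Set8b, and MKI67 one at 0.26 for wild-type Set8b over vector. CDKN1A, the gene of the cell cycle inhibitor p21, read 1052 for vector, 1891 for wild-type Set8b and 6590 for stable Set8b. The share of cells in each cycle phase was not measured here, and its part in the MCM differences was not tested.

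Of genes that start beside a member with a promoter entry, on the opposite strand and within 1000 bases, 3 were measured (TPRA1, AP4M1 and TRMT6), and LOC124901389 beside MCM9 had no probe set. The neighbours of MCM4 and MCM5 were not searched. None of the 3 was lower by 2-fold in any of the 3 comparisons. Such a drop was rare among all 11783 genes. It was seen in 4.81% going from vector to the stable form and in 4.80% going from wild-type to the stable form. Going from vector to wild-type it was seen in 0.653%. A count of none among 3 genes therefore does not set the neighbours apart from other genes, and whether they differ was not tested. TPRA1 starts 180 bases from MCM2 and read 172 for vector, 199 for wild-type Set8b and 182 for stable Set8b, where MCM2 was 2.53-fold lower than vector. AP4M1 starts 40 bases from the nearest of the 3 MCM7 starts and read 239, 172 and 183, with vector the highest and the other arrays close together. TRMT6 starts 119 bases from MCM8 and was highest with stable Set8b on both its probe sets, at 1475, 1113 and 1828 on the brighter (0.31 over vector) and 656, 502 and 879 on the other (0.42).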

How the data were processed

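Per the labels' protocols, total RNA was isolated with Trizol and biotin-labelled for Affymetrix arrays. What was deposited is 1 linear intensity for each of 54675 probe sets on each array. How the authors computed it from the scans is not stated in the sources used. Control probe sets (62) were left out. Because the log2 medians spanned 0.146, more than 0.1, the arrays were quantile normalised, which removes any overall shift. Values were floored at the 20th percentile (7.7) and taken to log2. Probe sets with a mean at or above the median of named ones (51.4) passed the filter, 20546 in all, and the brightest stood for each of 11783 genes.

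Members, lists and motifs were chosen with earlier results of these data known. Named are all members by every probe set, partner genes by size of difference or role, promoter neighbours, proliferation markers and the 5 genes most like MCM2 to MCM7. No test can be made from single arrays: values and log2 differences are given, counted at 2-fold. The steps were also run on simulated arrays, built from the vector array with random noise and planted differences. That run checks the processing only and does not measure variation between arrays or cultures. Alternatives covered scaling, floor, filter, probe-set choice and threshold. Python 3.11.15, numpy 2.4.6, pandas 2.3.3 and matplotlib 3.10.9 were used.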

Additional observations from a re-analysis of the deposited data

How the results depend on the processing

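Under 9 alternatives the median of MCM2 to MCM7 ranged from -1.40 to -1.28 for stable Set8b over vector, from -1.24 to -1.15 for stable over wild-type Set8b and from -0.24 to -0.02 for wild-type Set8b over vector. The floors and filters on low values left it exactly as it was, because these probe sets lie far above them, so they say nothing of its stability. Without _x_at and _s_at probe sets it is a median of 4 genes, since MCM2 and MCM7 then have no probe set, nor has MCM8. Centring the arrays on their medians shifted the median of all genes to -0.12 (stable Set8b) and -0.13 (wild-type Set8b) against vector. Relative to it, MCM2 to MCM7 were at -1.28 and -0.11. Single members gave 86 values per comparison, but the floors and filters left each member it kept at its main value, so many are repeats. All 86 were below 0 for both comparisons of stable Set8b, and the repeats say nothing of stability. From vector, MCM10 was at -1.11 as a mean over its probe sets and MCM4 at -1.64 without _x_at and _s_at probe sets, where MCMBP was at -0.03 for wild-type Set8b. MCM9 gave no value under the strictest filter on dim probe sets.

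Counts moved more. Without _x_at and _s_at probe sets, where fewer are counted, 5 of 10 member probe sets were at least 2-fold lower than vector and 6 of 10 than wild-type Set8b. By gene, the shares of all genes there were 5.18% and 4.93%, and the share of all probe sets was not computed. Of 20 partner genes, 5 were at least 2-fold lower than wild-type Set8b (4.93% of all genes). With centred arrays 15 partner genes were at least 2-fold lower than vector (6.09% of all genes). At 1.5-fold, 20 of 28 partner genes were lower than vector (14.0% of all genes), 20 than wild-type Set8b (14.4%) and 2 with wild-type Set8b over vector (4.11%). At 3-fold, 2 member probe sets and 1 partner gene were lower than vector (1.07% of all genes), and 0 and 0 than wild-type Set8b (1.14%). Before the start site alone, 4 of 8 members held an E2F word. No paired analysis was possible because each construct has 1 array. The 5 probe sets below the filter have signals up to 57.9, where direction cannot be told from background.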

Other observations

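The genes most like MCM2 to MCM7 were sought by distance over the log2 differences of both Set8b arrays from vector, 3 arrays in all. The nearest of 11773 other genes were CDC25C (distance 0.02), a phosphatase that activates CDK1 at entry into mitosis, FEN1 (0.03), the flap endonuclease that trims Okazaki fragments, CBX2 (0.03), a Polycomb subunit, DYNC2I2 (0.03), a dynein subunit of cilia, and SEPTIN3 (0.03). On the vector, wild-type and stable Set8b arrays FEN1 read 5862, 5633 and 2367, and CDC25C 776, 732 and 322. Within a distance of 0.25 lay 172 genes, so many patterns over 3 arrays are this close. The likeness is a description of these arrays only.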
